A study of Rattus norvegicus with 12 samples.

Results

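The hormone genes of the pancreatic islet other than insulin were followed on 12 arrays of whole rat pancreas. They were chosen by name as the hormones of the non-beta islet cells: Gcg (glucagon, alpha cells), Sst (somatostatin, delta cells), Ppy (pancreatic polypeptide, PP cells), Pyy (peptide YY, made with Ppy or Gcg in islet cells and in the gut) and Ghrl (ghrelin, epsilon cells). All 5 genes were measured, by 1 probe set each, among 15866 probe sets that stood for 10411 named genes. The arrays were rat Affymetrix RAE230-A chips in 4 groups of 3, all from adult male Wistar rats: diabetic treated (DT, made diabetic with streptozotocin and given sodium tungstate), diabetic untreated (DU, streptozotocin alone), healthy treated (HT, sodium tungstate without streptozotocin) and healthy untreated (HU, neither agent). By the sample labels, the tungstate solution that treated rats drank held 0.7 g/L for 1 week and then 2 g/L during 4 to 5 more weeks, and untreated rats were kept for 5 to 6 weeks. The study's methods give the higher concentration alone, and the disagreement was not settled here. RNA of 3 rats was pooled for every array, which makes the spread in a group that between pools. Streptozotocin is a toxin that enters beta cells and destroys them, so the diabetic groups model insulin deficiency and leave the other islet cells in the tissue. The values were log2 intensities after robust multi-array averaging (RMA), which corrects background and equalises the arrays. They follow a gene from sample to sample but do not rank the RNA of 1 gene against another.

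Islets are small groups of endocrine cells set in a gland that is mostly acinar tissue. Glucagon opposes insulin by making the liver release glucose, somatostatin restrains both insulin and glucagon release from neighbouring cells, and pancreatic polypeptide slows exocrine secretion. In rodent islets the beta cells lie in the core and the alpha, delta and PP cells in the mantle, and loss of the core to streptozotocin leaves islets made mainly of these other cells.

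Ppy and Pyy are tandem relatives of the neuropeptide Y family. In the RefSeq annotation of the rat build GRCr8 they lie on the minus strand of chromosome 10, Ppy at chr10:87554941-87556236 and Pyy at chr10:87561347-87562470, with 5110 bases between them. Gcg lies at chr3:67522489-67531533 on the minus strand, Ghrl at chr4:148421315-148431128 on the minus strand and Sst at chr11:90461546-90462823 on the plus strand. The promoters of Sst, the member that passed the test below, and of Gcg, which did not, are shown from 250 bases before to 30 bases after the annotated start, as given by RefSeq (GRCr8). Capitals mark the palindromic cAMP response element TGACGTCA in Sst, a motif through which cAMP signals are known to raise somatostatin transcription, and a TATA box motif, TATAAA, in Gcg.
Sst promoter, chr11:90461296-90461575, plus strand: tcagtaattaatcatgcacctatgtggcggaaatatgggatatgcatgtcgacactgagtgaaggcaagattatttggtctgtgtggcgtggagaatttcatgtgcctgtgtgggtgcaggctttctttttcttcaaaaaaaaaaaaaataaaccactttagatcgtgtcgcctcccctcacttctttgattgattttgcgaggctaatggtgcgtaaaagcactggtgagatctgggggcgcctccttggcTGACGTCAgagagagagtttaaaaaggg
Gcg promoter, chr3:67531504-67531783, minus strand: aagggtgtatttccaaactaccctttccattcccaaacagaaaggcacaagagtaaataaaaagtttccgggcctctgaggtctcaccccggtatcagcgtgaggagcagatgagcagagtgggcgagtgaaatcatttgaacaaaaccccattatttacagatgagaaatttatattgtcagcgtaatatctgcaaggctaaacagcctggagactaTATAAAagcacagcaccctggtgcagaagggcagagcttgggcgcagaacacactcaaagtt
With the annotated start counted as base 1, the capitals begin at base 3 in Sst and at base -32 in Gcg. The annotated starts were not set against measured transcription starts, so these positions follow the annotation only. Windows from 250 bases before to 50 bases after the start were searched on both strands for 3 motifs, none of which contains another, in the 5 members and in 33469 annotated rat promoters. TGACGTCA occurred in Sst alone of the 5, and in 1.83% of all windows. TATAAA occurred in Gcg and Ppy and in 14.2% of all windows. TAAT, the core recognised by many homeodomain factors, occurred 5 times in Sst and 2 times in Gcg, and was present in 60.6% of all windows. For Ghrl the window was chr4:148425175-148425474, which lies inside the gene interval given above and not at its end. The matches describe the letters only.

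Before the comparisons, the arrays were set against the markers of the tissue. The mean log2 level of 10 acinar genes lay between 12.95 and 13.67 over all 12 arrays, against array medians of 6.63 to 6.70 for all probe sets. The mean of 11 stomach and intestine genes, which would mark gut carried over with the organ, lay between 6.28 and 6.50. Ins2, the beta cell hormone, fell 26.1-fold in DU against HU (limma, adjusted p = 1.4e-06), as the labels of the diabetic group imply. Arrays correlated at 0.976 to 0.995 with each other. One array of the treated diabetic rats, DT3, stood apart on islet genes. Of 13 islet genes compared it was the highest DT array in 12, among them 4 of the 5 hormone genes. The share of all probe sets that were highest in DT3 was not counted, so the 12 have no background beside them. These 13 are the hormone genes with chosen beta cell and granule genes, and whole lists did not all follow: the mean level in DT3 was the highest of DT for the beta cell list and the granule list, but for the delta, PP and epsilon list it was 7.13 in DT3, against 7.21 in DT1 and 7.34 in DT2. For the pan-endocrine transcription factors it was 6.65 in DT3, against 6.66 and 6.77, and for the alpha cell list 7.33, against 7.23 and 7.36. DT3 came from another scan session and another chip lot than DT1 and DT2. HT3 shared both with DT3. Opposite in sign to DT3, it deviated from its own group mean by -0.32 for Gcg, -0.28 for Sst and -0.35 for Iapp. Scg2 (-0.69), Cpe (-0.55), Pcsk1n (-0.22), Ins1 (-0.12), Ins2 (-0.06), Scg5 (-0.05) and Ppy (-0.001) were opposite too. Pyy (0.16), Ghrl (-0.09) and Pcsk2 (0.05) had the sign of DT3. The part of scan and lot in DT3 was not tested. Changes of the members that use DT are given with and without DT3.

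Within the arrays, Ppy and Sst had the brighter probe sets and Pyy and Ghrl the dimmer ones. The median percentile of Sst among all probe sets was 93.8 in DT, 98.3 in DU, 96.1 in HT and 93.8 in HU. That of Ppy was 96.5, 93.3, 97.2 and 96.0 in the same groups, and that of Gcg 88.3, 90.9, 86.8 and 90.9. Pyy stood at 75.1, 69.2, 76.3 and 70.0, and Ghrl at 71.7, 72.8, 72.8 and 72.9. Percentiles place a probe set among its array and are not amounts of RNA, since probe sets differ in how well they bind.

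**Figure D1:**
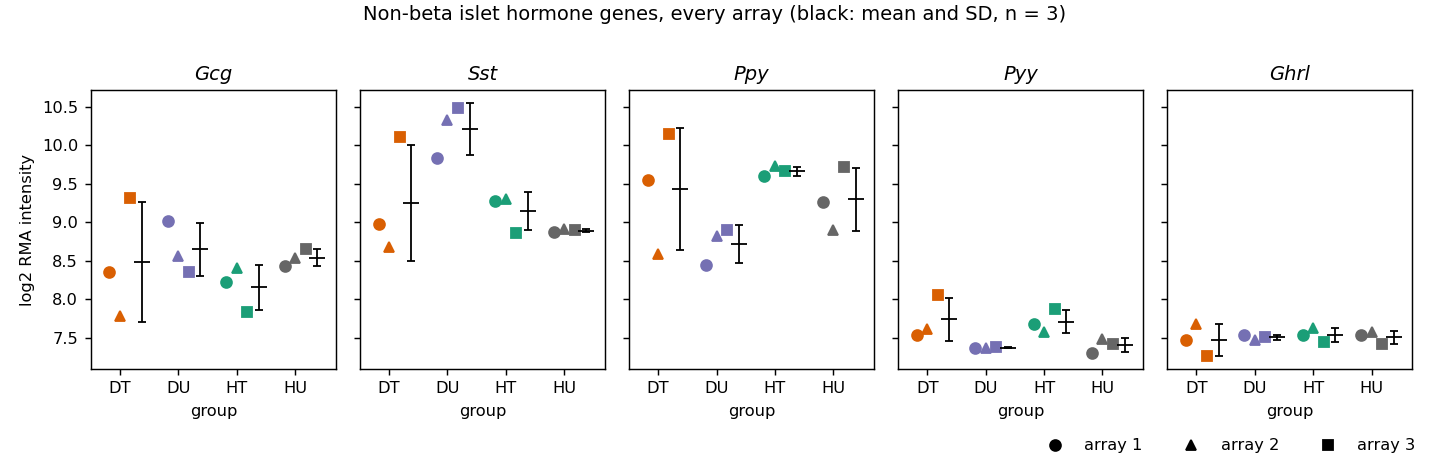
Log2 RMA intensity (y axis) of each hormone gene on each of the 12 arrays, by group (x axis: DT, DU, HT, HU). Symbols mark arrays 1, 2 and 3 of a group, and black bars the mean and SD (n = 3). The 3 DU arrays of Sst lie at 9.84 to 10.48, above all 3 HU arrays, and the 6 treated arrays of Pyy lie above the 6 untreated ones.

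Diabetes without treatment was addressed by DU vs. HU. Somatostatin mRNA was the only member that passed the test. Sst measured 9.84, 10.33 and 10.48 (log2 intensity) in DU1, DU2 and DU3, against 8.87, 8.92 and 8.90 in HU1, HU2 and HU3. All 3 DU pools were above all 3 HU pools, and the HU pools were nearly identical. Sst averaged 10.21 ± 0.33 in DU and 8.89 ± 0.02 in HU (SD, n = 3 each). The increase was 2.49-fold (95% interval 1.64 to 3.78; log2 fold change 1.32, SE 0.28; limma, adjusted p = 0.0217 over all probe sets). In bulk tissue more cells of a type and more RNA per cell cannot be told apart.

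The other 4 members did not pass the test in DU vs. HU. Ppy measured 8.44, 8.83 and 8.90 in DU, against 9.27, 8.91 and 9.72 in HU. The groups did not overlap, though DU3 and HU2 were close together. Its log2 fold change was -0.58 (SE 0.30; 95% interval -1.22 to 0.07; limma, adjusted p = 0.3). Gcg measured 9.02, 8.56 and 8.36 in DU, against 8.43, 8.54 and 8.65 in HU, with overlapping groups. Its log2 fold change of 0.11 had a 95% interval of -0.52 to 0.74, a fold of 0.696 to 1.67. With scan as a term of the fit, where no session held both groups, it was 2.10, a value linked through the single arrays DU1, DT3, HT3 and HU3. Pyy measured 7.37, 7.37 and 7.38 in DU, against 7.31, 7.49 and 7.43 in HU, a log2 fold change of -0.03 (95% interval -0.30 to 0.23). Ghrl measured 7.54, 7.48 and 7.52 in DU, against 7.54, 7.58 and 7.42 in HU, a log2 fold change of 0.00 (95% interval -0.21 to 0.22). The intervals of the dimmer Pyy and Ghrl probe sets were narrower than those of Gcg and Ppy. Whether these dimmer probe sets were above background was not tested, so their narrow intervals do not establish an absence of change.

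Of the 5 members, 1 was called in DU vs. HU at an adjusted p under 0.05 in either direction, where 3.2% of all probe sets were called. For 2 members, Sst and Ppy, the DU and HU arrays did not overlap, where 29.4% of all probe sets had no overlap. Sst ranked 269 of 15866 by p. Its call was lost when any 1 of DU2, DU3, HU1, HU2 or HU3 was left out (adjusted p 0.057 to 0.0819), with a log2 fold change of 1.19 to 1.51 over all 6 omissions. No scan session held both DU and HU, and within the 1 chip lot that held both, the log2 difference of DU1 and DU2 from HU3 was 1.18 for Sst, -1.09 for Ppy, 0.14 for Gcg, -0.06 for Pyy and 0.09 for Ghrl.

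**Figure D2:**
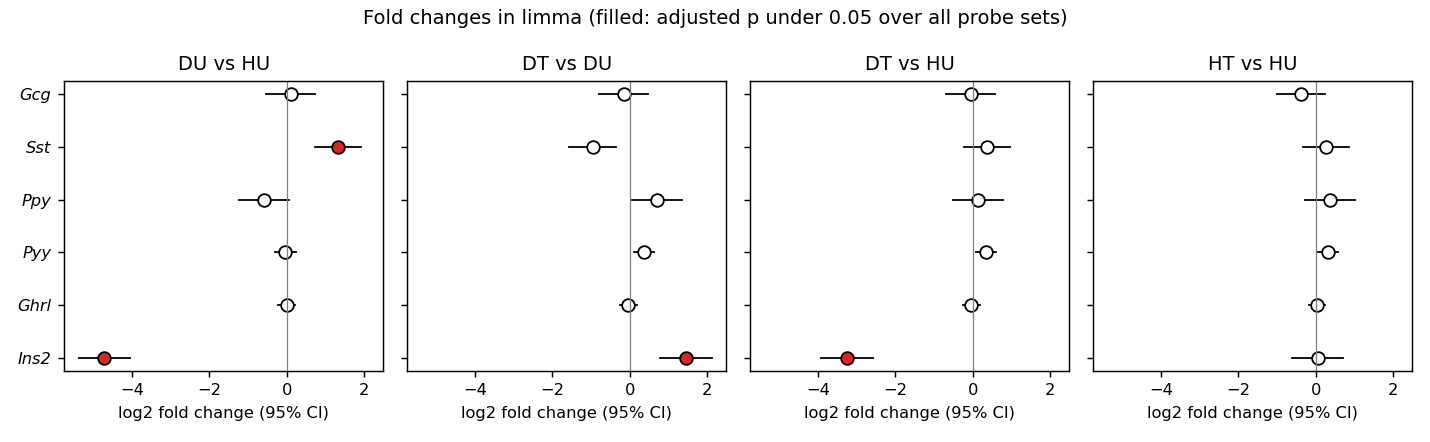
Log2 fold change (x axis) of the 5 hormone genes and Ins2 in 4 comparisons, each in a panel titled with its groups, with lines for the 95% interval of the limma fit on 12 arrays. Filled points passed an adjusted p under 0.05: Sst (1.32) and Ins2 (-4.71) in DU vs. HU, and Ins2 in DT vs. DU (1.45) and DT vs. HU (-3.25).

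The changes of the members were also compared with each other, as the difference between 2 members on each array, in 20 comparisons (10 pairs for diabetes, DU vs. HU, as well as for treatment, DT vs. DU). With 3 arrays against 3, a two-sided exact permutation test cannot go below p = 0.1, which after adjustment over the 20 became 0.25. In DU vs. HU the change of Sst exceeded that of Ppy by 1.90 on the log2 scale. Sst minus Ppy lay between 1.39 and 1.58 in DU, against -0.82 to 0.01 in HU, a wide gap. The change of Sst exceeded that of Gcg by 1.21, that of Pyy by 1.35 and that of Ghrl by 1.32, each with groups that did not overlap (exact permutation p = 0.1, the smallest possible). These differences use the same DU and HU arrays as the fold change of Sst, so they restate it and add no separate evidence.

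Tungstate in diabetic rats was addressed by DT vs. DU. None of the 5 members was called, where 1.12% of all probe sets were called. An unadjusted limma p under 0.05 was reached by 3 members, and by 1569 of all 15866 probe sets. Sst measured 8.98, 8.68 and 10.10 in DT1, DT2 and DT3, against 9.84, 10.33 and 10.48 in DU. DT1 and DT2 were below every DU array, and DT3 lay inside the DU range. Sst averaged 9.26 ± 0.75 in DT and 10.21 ± 0.33 in DU (SD, n = 3 each), a log2 fold change of -0.96 (SE 0.28; 95% interval -1.56 to -0.36; limma, unadjusted p = 0.00428, adjusted p = 0.177). Without DT3 the log2 fold change was -1.38 and passed the test (limma, adjusted p = 0.00124), and without DT1 or DT2 the adjusted p was 0.385 or 0.423. Within the scan session that held DT1, DT2 and DU1, the difference was -1.01, and it was -1.25 within chip lot 1 and -0.37 between DT3 and DU3 of lot 3. With scan as a term of the fit the value was the same -1.01, since DU1 was then the only DU array compared. The spread between DU pools did not enter it, so it is given as a size only.

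Ppy measured 9.55, 8.58 and 10.15 in DT, against 8.44, 8.83 and 8.90 in DU. DT1 and DT3 were above every DU array and DT2 was within their range. The log2 fold change was 0.70 (SE 0.30; limma, unadjusted p = 0.0345, adjusted p = 0.448). It was 0.34 without DT3, and 1.13 without DT2, where it passed the test (limma, adjusted p = 0.0325). Between DT1 with DT2 and DU1, in 1 scan session, it was 0.62, and between DT3 and DU3 it was 1.25.

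Pyy measured 7.54, 7.62 and 8.06 in DT, against 7.37, 7.37 and 7.38 in DU. All DT arrays were above all DU arrays, which held for this 1 member and for 13.9% of all probe sets in either direction. The log2 fold change was 0.37 (SE 0.12; 95% interval 0.10 to 0.63; limma, unadjusted p = 0.0102, adjusted p = 0.279), and 0.21 without DT3. Within the shared scan session it was 0.21.

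Gcg and Ghrl overlapped between DT and DU. Gcg measured 8.36, 7.79 and 9.32 in DT, against 9.02, 8.56 and 8.36 in DU, and the DT arrays spanned more than the DU arrays on both sides. The log2 fold change was -0.16 (SE 0.29; limma, adjusted p = 0.933), which was -0.57 without DT3 and 0.19 without DT2. Within the shared scan session it was -0.95, and between DT3 and DU3 it was 0.96, so that the sign for glucagon depended on which arrays were compared. Ghrl measured 7.48, 7.68 and 7.27 in DT, against 7.54, 7.48 and 7.52 in DU, a log2 fold change of -0.04 (SE 0.10; limma, adjusted p = 0.958), and 0.069 without DT3.

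**Figure D3:**
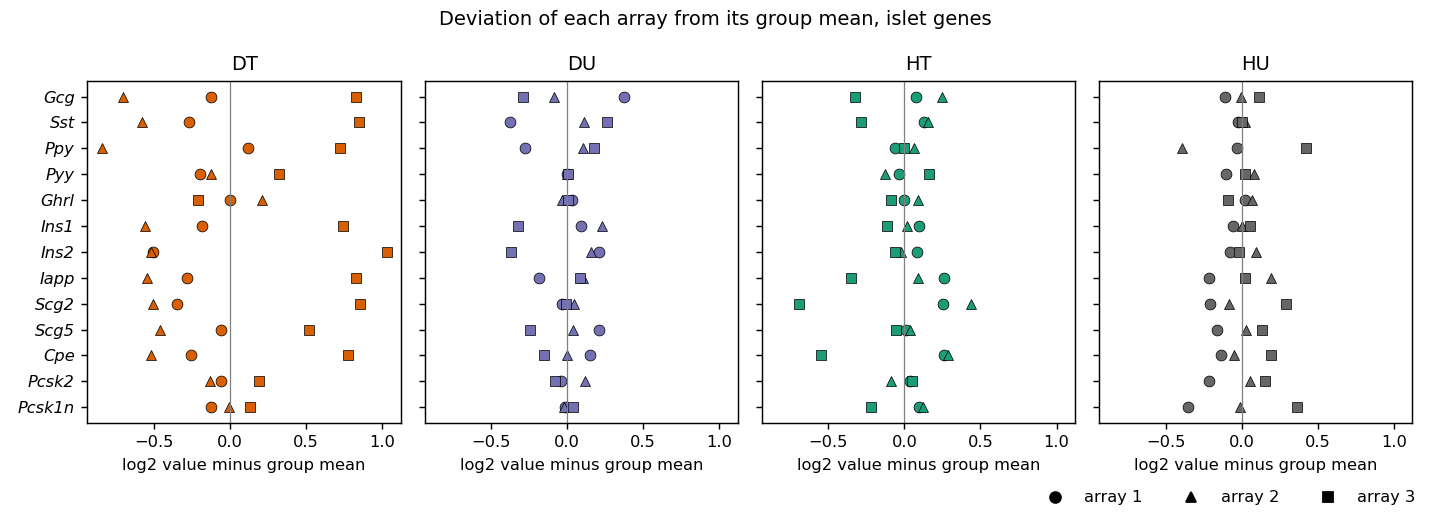
Log2 value minus the mean of its own group (x axis) for each array, in DT, DU, HT and HU, over the 5 hormone genes and 8 other islet genes (y axis). Symbols mark arrays 1, 2 and 3. The squares of DT3 lie to the right in all genes shown except Ghrl, with deviations of 0.83 for Gcg, 0.85 for Sst, 0.72 for Ppy, 0.32 for Pyy and -0.21 for Ghrl.

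DT3 exceeded its group mean by 1.03 for Ins2, 0.74 for Ins1 and 0.83 for Iapp (islet amyloid polypeptide, released with insulin), beside 0.83, 0.85 and 0.72 for Gcg, Sst and Ppy. The granule and processing genes shown deviated in the same direction, with 0.86 for Scg2 (secretogranin 2) and 0.78 for Cpe (carboxypeptidase E, which trims prohormones). Deviations were smaller for Scg5 (0.52), Pcsk2 (0.19) and Pcsk1n (0.13). All of these were called lower in DU vs. HU, and the other granule genes were not examined array by array. Ghrl deviated by -0.21. The part of this array in the DT values was not tested beyond leaving it out. Between members, Sst minus Ppy lay between -0.56 and 0.09 in DT, against 1.39 to 1.58 in DU, a difference of -1.66 (exact permutation p = 0.1, adjusted 0.25). Gcg minus Ppy lay between -1.18 and -0.80 in DT, against -0.54 to 0.58 in DU, a difference of -0.86 (exact permutation p = 0.1, adjusted 0.25). Sst minus Pyy (a difference of -1.33) and Pyy minus Ghrl (0.40) had the same exact permutation p. The DU arrays are those of the comparison with HU. With 3 arrays a group no pair of members could pass this test, so it decides nothing in either comparison.

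Treated diabetic rats were also set against healthy untreated rats. In DT vs. HU, which shares the DT arrays with the comparison above and the HU arrays with DU vs. HU, none of the 5 members was called, where 1.32% of all probe sets were. Sst measured 8.98, 8.68 and 10.10 in DT, against 8.87, 8.92 and 8.90 in HU, so that DT1 and DT2 were on either side of HU and DT3 above it. The log2 fold change was 0.36 (95% interval -0.24 to 0.96; limma, adjusted p = 0.538), and -0.06 without DT3. It was 1.63 with scan as a term, a value linked through DT3 against HT3 and through HT1 and HT2 against HU3. That of Gcg was -0.05 (95% interval -0.68 to 0.58) and that of Ppy 0.13 (95% interval -0.52 to 0.77). Pyy was the member without overlap, as were 21.1% of all probe sets, with a log2 fold change of 0.33 (limma, unadjusted p = 0.0174, adjusted p = 0.199). Ghrl had a log2 fold change of -0.04 (95% interval -0.25 to 0.18). Within chip lot 1 the difference of DT1 and DT2 from HU3 was -0.58 for Gcg, -0.07 for Sst, -0.66 for Ppy and 0.15 for Pyy. Without DT3 the log2 fold change in DT vs. HU was -0.47 for Gcg, -0.24 for Ppy, 0.17 for Pyy and 0.070 for Ghrl. No scan session held both groups.

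In healthy rats, tungstate was addressed by HT vs. HU. None of the 5 members was called, and 0.0063% of all probe sets were. Gcg measured 8.23, 8.40 and 7.83 in HT, against 8.43, 8.54 and 8.65 in HU. All HT arrays were below all HU arrays, with HT2 close to HU1. The log2 fold change was -0.39 (SE 0.29; limma, adjusted p = 0.877). Pyy measured 7.68, 7.58 and 7.88 in HT, against 7.31, 7.49 and 7.43 in HU, also without overlap, a log2 fold change of 0.31 (SE 0.12; limma, unadjusted p = 0.0266, adjusted p = 0.871). These 2 members had no overlap, as had 11.6% of all probe sets.

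The other members overlapped between HT and HU. Sst measured 9.28, 9.31 and 8.87 in HT, against 8.87, 8.92 and 8.90 in HU, a log2 fold change of 0.26 (limma, adjusted p = 0.905). HT1 and HT2 were above all HU arrays, and HT3 was at their level. Ppy measured 9.61, 9.73 and 9.66 in HT, against 9.27, 8.91 and 9.72 in HU, a log2 fold change of 0.36 (limma, adjusted p = 0.881), with HU3 at the level of the HT arrays. Ghrl measured 7.54, 7.63 and 7.45 in HT, against 7.54, 7.58 and 7.42 in HU, a log2 fold change of 0.03 (limma, adjusted p = 0.966). Within the scan session that held HT1, HT2 and HU3, the difference was -0.34 for Gcg, 0.39 for Sst, -0.06 for Ppy, 0.21 for Pyy and 0.17 for Ghrl. Within chip lot 2 it was -0.17, 0.40, 0.58, 0.23 and 0.03 in the same order of genes.

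Whether tungstate acted unequally in diabetic and healthy rats was tested as the interaction, the change in DT vs. DU less the change in HT vs. HU. None of the 5 members was called, where 0.422% of all probe sets were. For Sst the interaction was -1.21 on the log2 scale (SE 0.39; limma, unadjusted p = 0.00857, adjusted p = 0.359). Without DT3 it was -1.64 (limma, adjusted p = 0.00587). With scan as a term it was -1.40, a value that sets DT1 and DT2 against DU1 alone and HT1 and HT2 against HU3 alone. For Ppy it was 0.34, for Gcg 0.23, for Pyy 0.06 and for Ghrl -0.07, with limma adjusted p of 0.883 to 0.953. Without DT3 these were -0.022 for Ppy, -0.19 for Gcg, -0.10 for Pyy and 0.039 for Ghrl.

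Pyy prompted 1 further comparison, chosen after its values were seen: both treated groups against both untreated groups. The 6 treated arrays measured 7.54 to 8.06 (DT and HT) and the 6 untreated arrays 7.31 to 7.49 (DU and HU), so that every treated pool was above every untreated one. Of all probe sets 0.202%, 32 in number, separated the arrays in this way in either direction. Since the comparison was chosen for this separation, that share is a description and supports nothing. The mean was 7.73 in treated and 7.39 in untreated rats, a ratio of 1.26 (log2 fold change 0.34, SE 0.09; 95% interval 0.15 to 0.52; limma, unadjusted p = 0.00182). The adjusted p was 0.2, so the member was not called, and none of the 5 was, where 0.422% of all probe sets were called. Leaving out any 1 array gave log2 fold changes of 0.26 to 0.39 with limma adjusted p of 0.112 to 0.429, and 0.26 was the value without DT3. It was 0.21 with scan as a term, where DU1 and HU3 were the only untreated arrays set against treated ones. Ppy, its neighbour on chromosome 10, had a log2 fold change of 0.53 over both (limma, unadjusted p = 0.0249, adjusted p = 0.557), with overlapping arrays. Sst, Gcg and Ghrl had -0.35, -0.27 and -0.00 (limma, adjusted p = 0.733, 0.809 and 0.997). Without DT3 these were -0.56, -0.48 and 0.050, and that of Ppy was 0.35. The Pyy probe set was designed on an expressed sequence tag, and its median percentile lay between 69.2 and 76.3 over the groups, so that the difference is one of lower intensities.

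**Figure D4:**
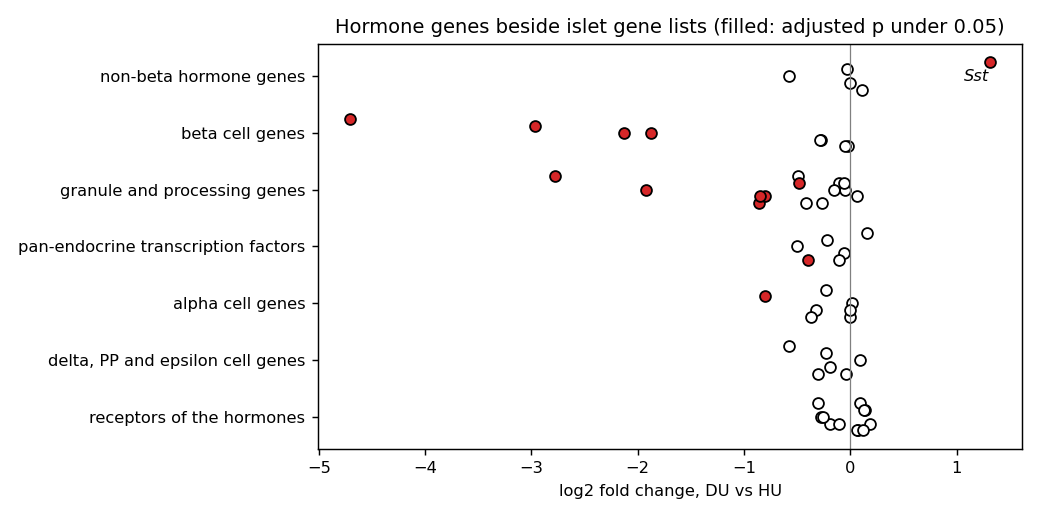
Log2 fold change in DU vs. HU (x axis) of the 5 non-beta hormone genes and of 6 lists of islet genes (y axis), 1 point a gene, with vertical offsets only to separate points. Filled points passed an adjusted p under 0.05. Sst (1.32) is the filled point to the right of 0, and the filled points to the left include Ins2 (-4.71), Ins1 (-2.97) and Scg2 (-2.78).

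The genes around the hormones were counted by list, against a median log2 fold change of -0.02 for all probe sets in DU vs. HU. Of 8 measured beta cell genes 4 fell and none rose (median -1.08): Ins2, Ins1 (7.82-fold lower, adjusted p = 1.04e-05), Iapp (4.38-fold lower, adjusted p = 0.000702) and Slc2a2, the glucose transporter of rodent beta cells (3.67-fold lower, adjusted p = 1.93e-05). Of 7 measured alpha cell genes besides Gcg, 1 fell, the glucagon-processing convertase Pcsk2 (1.74-fold lower, limma, adjusted p = 0.00122), which beta cells also use (median -0.23). Of 6 genes of delta, PP and epsilon cells besides the hormones none passed the test (median -0.21). These lists share members with each other, and Pcsk2 also stands among the granule genes.

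Of 14 measured granule and processing genes, which make and store peptide hormones, 6 fell and none rose in DU vs. HU, and 8 did not pass the test (median -0.45). Among the 8 were chromogranins A and B (Chga, log2 fold change -0.27, and Chgb, 0.06). Chga averaged 6.30 in DU and 6.57 in HU, and Chgb 5.32 and 5.26. These levels lay below the array medians of 6.63 to 6.70. Whether the 2 probe sets were above background was not tested, so an absence of change is not shown. Scg2 was 6.88-fold lower in DU (limma, adjusted p = 0.000303) and Cpe 3.78-fold lower (limma, adjusted p = 0.00178). Pcsk1n, the precursor of the convertase inhibitor proSAAS, was 1.81-fold lower (limma, adjusted p = 0.00645). The direction of Sst was opposite to that of these 6 genes. Of 6 pan-endocrine transcription factors 1 fell, Foxa2 (1.32-fold lower, limma, adjusted p = 0.0408; median -0.16). Of 12 measured receptors for the 5 hormones none passed (median 0.07).

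Other tissue lists were counted beside them, as the pancreas holds duct, nerve and exocrine cells. Of 14 gut and nerve peptide hormones 1 fell in DU vs. HU, Iapp (median -0.01). None of 7 duct genes, 11 stomach and intestine genes or 8 neuron and glia genes passed (medians 0.00, 0.01 and 0.00). Of 10 acinar genes 1 fell, the pancreatic amylase Amy2a3, 36.3-fold lower (limma, adjusted p = 1.04e-05), and the other 9 did not pass (list median -0.03). The mean level of the acinar list was 12.95 to 13.17 in DU and 13.56 to 13.57 in HU, a mean that includes Amy2a3, and its part in the Sst difference was not tested. The mean level of the neuron and glia list, since nerves and gut also use somatostatin, was 6.41 to 6.47 in DU and 6.40 to 6.57 in HU.

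The same lists held few calls in the other comparisons. In DT vs. DU, Ins2 rose 2.74-fold (limma, adjusted p = 0.0387), Ptprn2, the granule membrane protein phogrin, 1.40-fold (limma, adjusted p = 0.0267) and Amy2a3 32.2-fold (limma, adjusted p = 2.02e-05). Spp1, the duct gene osteopontin, fell 1.44-fold (limma, adjusted p = 0.0319). Without DT3 the granule list held 0 calls there, and the beta cell, acinar and duct lists held 1 each. No gene of the alpha cell list, the delta, PP and epsilon list or the receptor list passed there (medians 0.07, -0.00 and -0.06, against 0.00 for all probe sets). In DT vs. HU the 4 beta cell genes were still lower, with Ins2 9.54-fold lower (limma, adjusted p = 0.000241), and Scg2, Cpe, Pcsk2 and Pcsk1n were 1.67- to 4.24-fold lower. No gene of any list passed in HT vs. HU.

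For each hormone gene the 3 genes with the most similar profile over the 12 arrays were taken from 10406 named genes, by Pearson's r. For Sst these were Nup205, a nuclear pore subunit (r = 0.97), C8h15orf39 (r = 0.92) and Lpcat3, a phospholipid acyltransferase (r = 0.91). For Gcg they were Sbsn (r = 0.90), Heatr5a (r = 0.90) and Ndufb1, a respiratory chain subunit (r = 0.88), for Ppy Selenom, Ckb (brain creatine kinase) and Col18a1 (r = 0.88 to 0.89), for Pyy Letm1, Espn and Dnm2 (r = 0.91 to 0.92) and for Ghrl Atg10, Secisbp2 and Klrc1 (r = 0.89 to 0.91). None of these 15 genes belongs to the islet lists. The correlations run over arrays that share groups, pools and scan sessions, and the highest of so many are high by selection.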

How the data were processed

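RNA of whole pancreas was measured on 12 rat arrays, 3 per group, each a pool of RNA from 3 rats. The deposited values were log2 intensities that the authors made from the scanner files by RMA in Bioconductor, per the methods. The software version was not stated there. Deposited scan records (unit: other) gave scan sessions and chip lots. Of 15923 probe sets, 57 controls were left out. Of the 15866 tested, 12783 had 1 gene symbol, 312 several and 2771 none in the platform annotation. A list gene had 1 probe set, the brightest over all arrays. The 4 group means were fitted with limma 3.58.1 in R 4.3.3, with moderated statistics and Benjamini-Hochberg adjustment over all 15866. A probe set was called at an adjusted p under 0.05. P-values measure the spread between pools only, and the number of arrays limits precision.

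The members and lists were chosen with earlier results of these data known. Named were all members, Ins2, the list genes that were called (at most 4 a list, by adjusted p, with others named where they touch a member) and the 3 most similar genes of each member. On simulated data for DU vs. HU with 15866 probe sets, 37 of 50 changes of 1.5-fold and 47 of 50 of 2-fold were recovered. All 50 of 3-fold and of 4-fold were recovered too, with 12 false calls. The changes were put on probe sets drawn at random, with independent noise and no effect of scan or lot. The SE in DU vs. HU was 0.28 to 0.30 for Gcg, Sst and Ppy, against 0.10 for Ghrl and 0.12 for Pyy. The recovered shares are therefore not those of the members. Alternatives were a second quantile normalization, median centring, a filter of the dimmest 25% of probe sets, a fit on the compared arrays, another variance model, scan, lot or replicate number as a block, the B-statistic above 0 that the methods use, and omission of each array. The comparison of both treated with both untreated groups was added after the values were seen.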

Additional observations from a re-analysis of the deposited data

How the results depend on the processing

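The call of Sst in DU vs. HU was kept under the 9 alternatives that left out no array, but 1 of these, scan as a block, is no separate check. No session held both groups. Its log2 fold change of 2.64 is a chain: DU1 against DT1 and DT2, DT3 against HT3, and HT1 and HT2 against HU3. That chain hangs on DT3, which stood apart, and uses none of DU2, DU3, HU1 and HU2. With lot as a block the log2 fold change was 1.46 (limma, adjusted p = 0.0315). Leaving out 1 array at a time, the number of members called ranged from 0 to 1 in DU vs. HU, DT vs. DU and the interaction, and was 0 in the other 3 comparisons. With scan as a block the log2 value of Sst was -1.01 in DT vs. DU and -1.40 in the interaction. DU1 was the only DU array in both, so the spread between DU pools did not enter them. The replicate numbers did not pair the arrays, since same-numbered arrays of 2 groups correlated in their deviations at -0.29 to 0.31. The fit with the replicate block called 1 member in DU vs. HU, Sst (log2 fold change 1.32, adjusted p = 0.0233), and 0 in every other comparison.

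Some changes that did not pass the test turned sign. With scan as a block the log2 fold change was 0.18 for Pyy and -0.060 for Ghrl in DU vs. HU, 0.041 for Ghrl in DT vs. DU, 1.15 for Gcg in DT vs. HU, -0.057 for Ppy in HT vs. HU, -0.61 for Gcg in the interaction and 0.10 for Ghrl over both treated groups. Without a turn of sign, scan as a block also moved Gcg in DU vs. HU to 2.10, Sst in DT vs. HU to 1.63 and Pyy over both treated groups to 0.21. Every scan-block value of DU or DT against HU hangs on DT3 as the link between sessions. With lot as a block the log2 fold change was 0.053 for Gcg, -0.083 for Ppy and 0.056 for Ghrl in DT vs. HU, and 0.018 for Ghrl over both. With each array left out in turn, DU vs. HU ranged from -0.080 to 0.25 for Gcg, -0.085 to 0.0072 for Pyy and -0.046 to 0.034 for Ghrl. DT vs. DU ranged from -0.57 to 0.19 for Gcg and -0.14 to 0.069 for Ghrl. DT vs. HU ranged from -0.47 to 0.30 for Gcg, -0.064 to 0.65 for Sst, -0.24 to 0.55 for Ppy and -0.14 to 0.070 for Ghrl. HT vs. HU ranged from -0.016 to 0.074 for Ghrl. The interaction ranged from -0.19 to 0.58 for Gcg, -0.022 to 0.76 for Ppy, -0.10 to 0.16 for Pyy and -0.17 to 0.039 for Ghrl. Ghrl over both ranged from -0.055 to 0.050. Differences between members ranged from -0.64 to 0.33 (Gcg minus Ghrl, DT vs. DU), -0.066 to 0.25 (Gcg minus Ghrl, DU vs. HU), -0.048 to 0.29 (Gcg minus Pyy, DU vs. HU) and -0.098 to 0.021 (Pyy minus Ghrl, DU vs. HU). Over all probe sets, 507 calls in DU vs. HU became 34 with scan as a block, 236 with lot as a block, 288 with the B-statistic and 214 to 367 with 1 array of the groups left out. The 177 calls in DT vs. DU became 88 on the compared arrays alone and 104 to 224 with 1 array of the groups left out. Of the gene list counts, 51 changed by over 1.5 times under an alternative and 609 did not. The cause was not tested. No deposited count or detection call was used, so low intensities have no stated error.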
